A study of Homo sapiens with 26 samples.

Results

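The genes that start mitochondrial apoptosis within the BCL2 family were followed over a panel of 26 human B-cell cancer cell lines (HBCCL), 12 of multiple myeloma (MM) and 14 of diffuse large B-cell lymphoma (DLBCL). The 10 pro-apoptotic members BAX, BAK1, BOK, BCL2L11, BBC3, PMAIP1, BID, BAD, BIK and BMF were taken, and every probe-set annotated to a member alone was kept. That gave 22 of 54613 probe-sets, for 9 of the 10 members, on 26 of 26 arrays. The probe-set of BBC3, the gene of PUMA, is also annotated to other genes, so BBC3 was not analysed here.

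All 26 cell lines were untreated when RNA was taken, and each was measured once on an Affymetrix HG-U133 Plus 2.0 array, a chip that reads each transcript through sets of short probes. The MM group held KMM-1, KMS-11, KMS-12-BM, KMS-12-PE, LP-1, MM1S, MOLP-8, NCI-H929, OPM-2, RPMI-8226, U-266 and the plasmacytoma line AMO-1. The DLBCL group held SU-DHL-4, SU-DHL-5, SU-DHL-8, OCI-Ly19, OCI-Ly7, OCI-Ly3, U2932, RIVA, NU-DUL-1, NU-DHL-1, HBL-1, FARAGE, DB and MC-116, a line labelled as undifferentiated lymphoma. In separate cultures the lines had been exposed to mafosfamide, an analogue of cyclophosphamide that needs no liver enzyme (C), to doxorubicin (H) and to vincristine (O). SU-DHL-4 had no value for C or O, MC-116 none for C and NU-DHL-1 none for O. That left 12 DLBCL lines for C and 12 for O. AUC0, the area under the dose response curve counted where the curve is above 0, is larger in a more resistant line, and within each disease its tertiles gave the classes resistant, intermediate and sensitive. A cell line is 1 culture of 1 tumour, so the errors below are the spread between lines and not between cultures of a line. KMS-12-PE and KMS-12-BM were both derived from the same patient and are therefore not independent MM lines. The labels gave no batch or scan date. Growth media differed, with RPMI and 10% serum in 6 MM and 8 DLBCL lines, RPMI and 20% serum in 5 MM and 2 DLBCL lines, and other media in 1 MM and 4 DLBCL lines. The labelled disease fitted the marker genes of its cell type. The mean log2 level over 6 plasma cell markers lay between 9.44 and 12.41 in MM lines and between 6.01 and 9.76 in DLBCL lines, and that of 5 B-cell markers between 4.40 and 5.40 in MM lines and between 8.74 and 11.40 in DLBCL lines. Of markers of other cells, 0 of 5 T-cell, 0 of 5 myeloid and 0 of 6 stromal and endothelial genes differed between the diseases in limma, where 1, 3 and 1 of them had an unadjusted p under 0.05.

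The BCL2 family decides whether the outer mitochondrial membrane stays intact. BAX and BAK1 are the effectors that assemble into pores and release cytochrome c, after which caspases are activated on the apoptosome, and BOK is a relative of both. The remaining members are BH3-only proteins, stress sensors that either bind the anti-apoptotic proteins such as BCL2 and MCL1 or activate BAX and BAK1 directly. In B cells BIM, encoded by BCL2L11, is a main brake on survival, and NOXA, encoded by PMAIP1, is known for binding and destabilising MCL1. These roles are much studied in myeloma and lymphoma because drugs that mimic a BH3 domain are used against both.

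Before the levels, the promoters of 3 members are shown. They were picked because BAK1 and PMAIP1 differed between the diseases and BCL2L11 was lowest in LP-1 on most of its probe-sets. Of the 10 members, 9 had an entry in the RefSeq promoter table of GRCh38.p14, which holds the 250 bases before the transcription start and some bases after it. The bases before the start are given 5′ to 3′ on the strand of the gene, with capitals marking each match, on either strand, to the GC box GGGCGG, to TGACG, the core of the cAMP response element bound by ATF factors, and to the CCAAT box. A match is a string of letters and not a measured binding site.
PMAIP1, chr18:59899746-59899995, plus strand: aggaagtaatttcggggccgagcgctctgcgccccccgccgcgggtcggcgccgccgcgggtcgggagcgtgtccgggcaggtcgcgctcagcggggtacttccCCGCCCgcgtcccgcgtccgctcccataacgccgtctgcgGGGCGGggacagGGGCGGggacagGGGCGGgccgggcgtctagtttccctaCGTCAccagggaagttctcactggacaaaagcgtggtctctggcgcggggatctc
BAK1, chr6:33580277-33580526, minus strand: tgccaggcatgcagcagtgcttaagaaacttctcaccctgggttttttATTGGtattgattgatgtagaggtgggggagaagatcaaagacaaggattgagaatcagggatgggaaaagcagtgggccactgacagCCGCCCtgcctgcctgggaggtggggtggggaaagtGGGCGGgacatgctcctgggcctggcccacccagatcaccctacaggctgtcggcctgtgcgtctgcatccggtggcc
BCL2L11, chr2:111120664-111120913, plus strand: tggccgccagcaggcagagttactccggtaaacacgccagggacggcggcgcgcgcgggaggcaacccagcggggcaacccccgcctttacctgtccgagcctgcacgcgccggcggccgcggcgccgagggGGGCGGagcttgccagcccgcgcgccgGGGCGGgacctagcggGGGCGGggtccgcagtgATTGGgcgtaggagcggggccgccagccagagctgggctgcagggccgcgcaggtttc
The PMAIP1 window held 4 GC boxes, 1 TGACG and 0 CCAAT boxes. The BCL2L11 window held 3 GC boxes, 0 TGACG and 1 CCAAT box. The BAK1 window held 2 GC boxes, 0 TGACG and 1 CCAAT box. Over all 35116 promoters of the same length, 42.6% held a GC box, 21.2% a TGACG and 32% a CCAAT box. CG dinucleotides numbered 36 before PMAIP1, 34 before BCL2L11 and 5 before BAK1, against a median of 11 over all promoters. The PMAIP1 and BCL2L11 windows were therefore among the CG-rich promoters, and that of BAK1 was not. In GRCh38 the genes lie at chr18:59899996-59904305 (PMAIP1), chr6:33572552-33580276 (BAK1) and chr2:111120914-111168445 (BCL2L11).

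Levels below are log2 values after robust multi-array averaging (RMA), so a difference of 1 is a doubling, and levels of different probe-sets are not compared with each other. Where 1 value is given for a member, it is that of the probe-set with the largest SD over the DLBCL lines. A background level was set on each array as the 95th percentile of 77 probe-sets of genes restricted to other tissues, and it lay between 6.66 and 7.75. Of the 22 probe-sets, 20 exceeded it in at least 1 line. The probe-set that stood for BCL2L11, 208536_s_at, exceeded it in 8 lines only, while 225606_at of the same gene did so in 25, so values of 225606_at are given for that gene unless stated.

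Of the effectors, BAK1 was higher in MM lines than in DLBCL lines and BAX was not distinguishable between them. BAK1 (203728_at) ranged from 7.59 over a median of 8.41 to 8.82 in MM lines, against 7.09, 7.61 and 8.20 in DLBCL lines. Of the 12 MM lines, 9 lay above every DLBCL line, and 7 of the 14 DLBCL lines lay below every MM line. The MM lines inside the DLBCL range were RPMI-8226 at 7.59, KMS-11 at 7.90 and KMS-12-PE at 7.99. BAK1 averaged 8.34 ± 0.35 in MM lines (SD, n = 12) and 7.67 ± 0.37 in DLBCL lines (SD, n = 14), a difference of 0.67 (SE 0.14, 95% CI 0.38 to 0.95, limma adjusted p = 0.00214 over all probe-sets). With the 4 DLBCL lines under background set to it, BAK1 was at least 1.5-fold higher in MM. Leaving out each line in turn kept the difference between 0.62 and 0.73. Among the lines in RPMI with 10% serum, where 6 MM lines stood against 8 DLBCL lines, the difference was 0.46 (limma, adjusted p = 0.225), and among those in 20% serum, 5 against 2, it was 0.68 (limma, adjusted p = 0.512). With the medium as a term in the fit it was 0.60 (limma, adjusted p = 0.0103). In such bulk RNA, fewer cells with a transcript and less of it per cell cannot be told apart.

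BAX, the cytosolic effector that moves to mitochondria, had levels on 211833_s_at of 7.61, 8.06 and 9.51 in MM lines (lowest, median, highest) and of 7.27, 8.17 and 9.13 in DLBCL lines. The ranges overlapped over most of their length, and the difference was 0.01 (SE 0.23, 95% CI -0.46 to 0.47, limma adjusted p = 0.990). AMO-1 was the highest line on both BAX probe-sets, which correlated over the lines at r = 0.96 (n = 26). SU-DHL-8, OCI-Ly7 and SU-DHL-4 were the lowest lines, at 7.27, 7.38 and 7.38. BOK was not above background on either of its probe-sets in any line. Its 223349_s_at spanned 4.87 to 5.47 in MM lines and 4.82 to 5.47 in DLBCL lines, a difference of 0.04 (SE 0.07, limma adjusted p = 0.751). The 2 BOK probe-sets correlated at only r = 0.32, so the order of the lines for BOK carries little information.

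**Figure D1:**
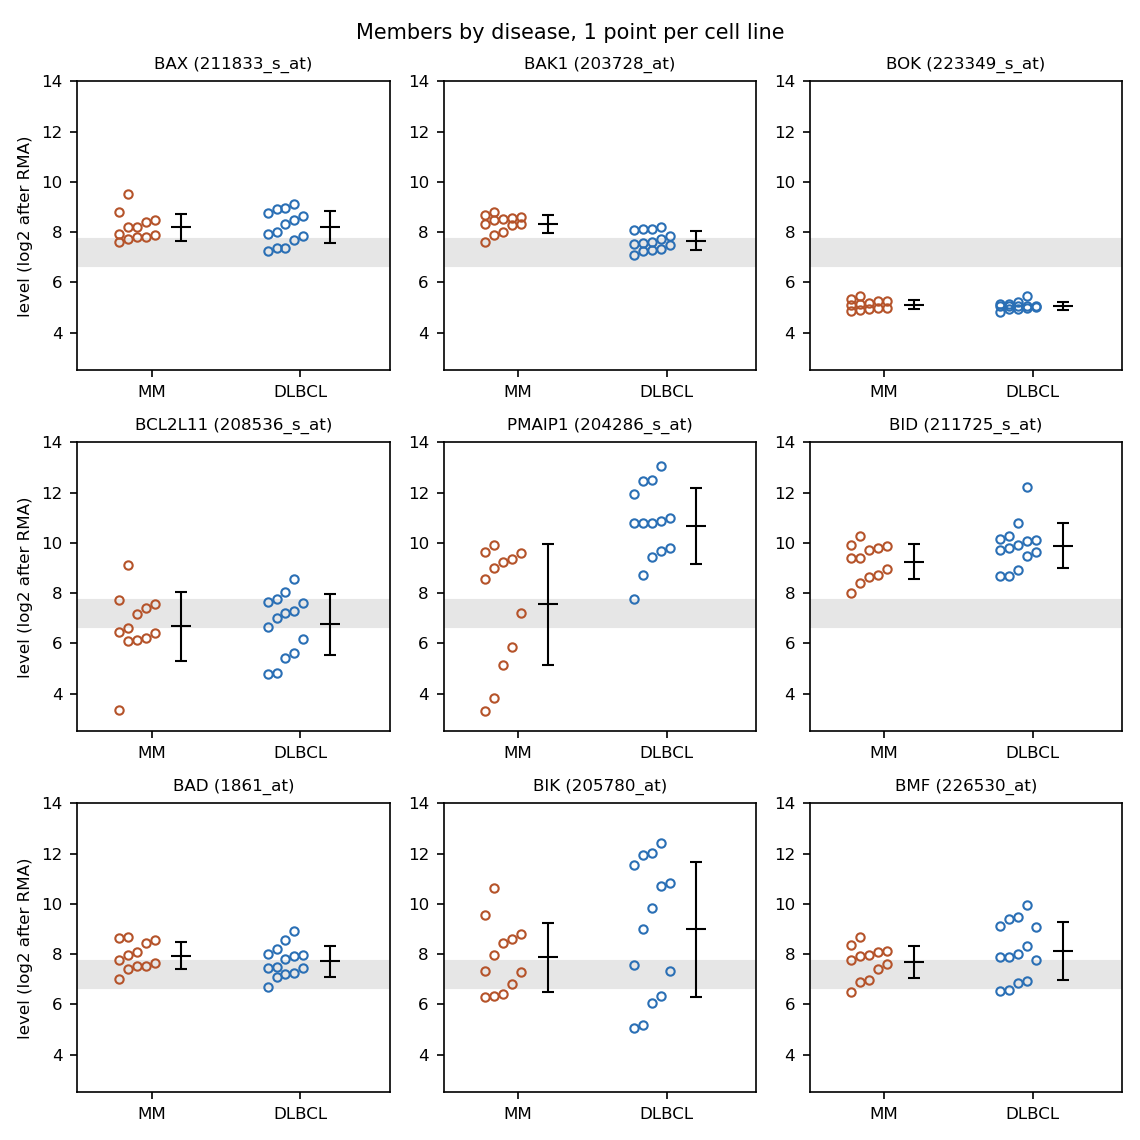
Level (log2, RMA) of the 9 measured members, 1 panel each, in 12 MM lines at left and 14 DLBCL lines at right; each point is a cell line, the bar is the mean with SD, and the grey band is the range of the background levels of the arrays, 6.66 to 7.75. BAK1 sits higher in MM lines (8.34 against 7.67), PMAIP1 lower in MM lines (7.56 against 10.69), and BOK lies under the band in every line.

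PMAIP1 differed most between the diseases. Its protein NOXA is a BH3-only sensor whose gene is induced by p53 and by the integrated stress response. On 204286_s_at the level was 3.33 at the lowest, 8.78 at the median and 9.93 at the highest of the MM lines, against 7.75, 10.80 and 13.06 in DLBCL lines. Below every DLBCL line lay 5 MM lines, U-266 (3.33), KMS-12-BM (3.83), MM1S (5.13), KMM-1 (5.86) and NCI-H929 (7.21). The other 7 MM lines were packed between 8.55 (MOLP-8) and 9.93 (RPMI-8226), within the lower part of the DLBCL range. Above every MM line lay 9 DLBCL lines, led by U2932 (13.06), OCI-Ly3 (12.53), RIVA (12.47) and HBL-1 (11.95). PMAIP1 averaged 7.56 ± 2.41 in MM lines (SD, n = 12) and 10.69 ± 1.51 in DLBCL lines (SD, n = 14), a difference of -3.13 (SE 0.75, 95% CI -4.67 to -1.58, limma adjusted p = 0.00672). On this probe-set only 7 of the 12 MM lines were above background, and with the other lines set to it PMAIP1 was at least 4.86-fold lower in MM. The other PMAIP1 probe-set, 204285_s_at, gave -3.09 (SE 0.76, limma adjusted p = 0.00809), at least 5.99-fold lower by the same rule, with r = 0.99 between both over the 26 lines.

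The PMAIP1 difference still passed without its lowest lines, but not within either serum concentration. Without KMS-12-BM and U-266, left out because they were the lowest, it was -2.33 (limma, adjusted p = 0.0179), and leaving out each line in turn kept it between -3.35 and -2.74. In RPMI with 10% serum PMAIP1 spanned 3.33 to 9.93 in 6 MM lines and 8.71 to 13.06 in 8 DLBCL lines, a difference of -3.92 (limma, adjusted p = 0.0540). In RPMI with 20% serum it spanned 3.83 to 9.36 in 5 MM lines and had 7.75 and 9.81 in 2 DLBCL lines, a difference of -1.14 (limma, adjusted p = 0.876). With the medium as a term the difference was -2.84 (limma, adjusted p = 0.0257).

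BID, which caspase-8 cleaves to link death receptors to mitochondria, was lower in MM lines on 3 of 3 probe-sets but none passed the test. On 211725_s_at it was 8.0, 9.40 and 10.29 in MM lines (lowest, median, highest) and 8.69, 9.87 and 12.21 in DLBCL lines. The difference was -0.63 (SE 0.31, 95% CI -1.28 to 0.01, limma adjusted p = 0.201), and the others gave -0.62 and -0.66 (limma, adjusted p = 0.130 and 0.200). In 20% serum the difference on 211725_s_at was -0.03 (limma, adjusted p = 0.990). OCI-Ly3 was the highest line on all 3 probe-sets, 1.40 above the next line on 211725_s_at. RPMI-8226 was the lowest on all 3, with OPM-2 next.

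BIK, the BH3-only protein of the endoplasmic reticulum, varied widely within DLBCL. On 205780_at its level was 6.30, 7.65 and 10.63 in MM lines (lowest, median, highest) and 5.06, 9.40 and 12.44 in DLBCL lines. Of the DLBCL lines, 6 lay above all MM lines. The measured values of 3 others (NU-DHL-1, SU-DHL-8 and NU-DUL-1) were below all MM lines. These 3 and the lowest 4 MM lines were under background, so their order carries no information. BIK averaged 7.88 ± 1.38 in MM lines (SD, n = 12) and 8.99 ± 2.69 in DLBCL lines (SD, n = 14), so the mean difference of -1.11 (SE 0.83, 95% CI -2.82 to 0.60) did not exceed the spread between lines (limma, adjusted p = 0.428). In 10% serum it was -2.22 and with the medium as a term -1.74 (limma, adjusted p = 0.267 and 0.178). BMF, the sensor held at the cytoskeleton, had 6.50, 7.85 and 8.67 in MM lines and 6.52, 7.96 and 9.97 in DLBCL lines. Its difference was -0.44 (SE 0.36, 95% CI -1.18 to 0.30, limma adjusted p = 0.476). BAD, which growth factor signalling phosphorylates and silences, had 7.0, 7.86 and 8.70 on 1861_at in MM lines and 6.68, 7.64 and 8.92 in DLBCL lines, a difference of 0.23 (SE 0.22, limma adjusted p = 0.558). Correlations between the 3 BAD probe-sets spanned 0.17 to 0.97, and the low ones involve 232660_at, which was above background in 1 line.

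BCL2L11 differed between lines far more than between diseases. On 225606_at it had 3.92, 9.75 and 11.43 in MM lines (lowest, median, highest) and 7.90, 9.97 and 11.68 in DLBCL lines. Its 7 probe-sets gave differences of -0.51 to 0.23, none of which passed (limma, adjusted p between 0.409 and 0.965).

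Over the 22 probe-sets, 1 rose and 2 fell in MM, and 4 had an unadjusted p under 0.05. Of all 54613 probe-sets 11.5% passed the same threshold, 5.64% higher and 5.87% lower in MM, so the members' share was near that of the array. The median difference was -0.08 over the members' probe-sets and -0.02 over all.

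The related genes had their own exceptions. Of 6 anti-apoptotic family members, 0 were higher and 1 was lower in MM, namely BCL2A1, a partner that binds NOXA and BIM, which averaged 4.22 ± 0.63 in MM lines and 8.83 ± 2.77 in DLBCL lines (SD), a difference of -4.61 (limma, adjusted p = 0.000309). BCL2A1 was above background in 0 MM and 9 DLBCL lines, so it was at least 3.27-fold lower in MM. MCL1, the main partner of NOXA, averaged 9.73 ± 0.98 in MM lines and 8.83 ± 1.10 in DLBCL lines, a difference of 0.90 that did not pass (limma, adjusted p = 0.146). Of 7 measured genes of caspase activation after cytochrome c release, 1 was lower in MM, APAF1, the scaffold of the apoptosome, by a measured difference of -1.23 (limma, adjusted p = 0.00158). APAF1 was above background in 0 MM and 5 DLBCL lines, so no fold is given. Of 8 measured genes of p53 and its regulators and targets, 2 were lower, ZMAT3 at -1.48 and RRM2B at -1.22 (limma, adjusted p = 0.00986 and 0.0294), while CDKN1A, the cell cycle inhibitor p21, had a difference of -0.35 (limma, adjusted p = 0.669). None of 6 other BH3-containing or BCL2-related genes passed in limma, where 0 had an unadjusted p under 0.05. The median difference was -0.13 over the anti-apoptotic list, 0.32 over the caspase list, -0.18 over the p53 list and -0.39 over the other BH3-containing or BCL2-related genes.

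Among single lines, LP-1 stood apart for BCL2L11. LP-1 was also the 1 MM line grown in other media, and whether the medium bears on its level was not tested. On 225606_at LP-1 had 3.92, and the next lowest lines were FARAGE at 7.90, OCI-Ly7 at 8.36 and KMS-12-BM at 8.68. The LP-1 value was under its background level of 6.86. With LP-1 set to that level, 225606_at was at least 2.07-fold below the next line and at least 7.83-fold below its panel median of 9.83. These bounds hold for 225606_at only. On 1553096_s_at, where LP-1 was above background, it was 1.72-fold below the next line and 4.67-fold below the median. LP-1 was the lowest line on 6 of the 7 BCL2L11 probe-sets. It had 4.75 on 1558143_a_at, 4.08 on 1555372_at, 4.0 on 222343_at, 3.34 on 208536_s_at and 6.87 on 1553096_s_at. The exception was 1553088_a_at, where LP-1 had 7.18 and NU-DUL-1 (7.04) and DB (7.09) lay lower. That value and the 6.87 of 1553096_s_at were still above the same background level, so 5 of the 7 probe-sets were at background in LP-1 and 2 were not. At the other end KMS-12-PE was highest on 5 of the 7 probe-sets and RIVA on 2.

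**Figure D2:**
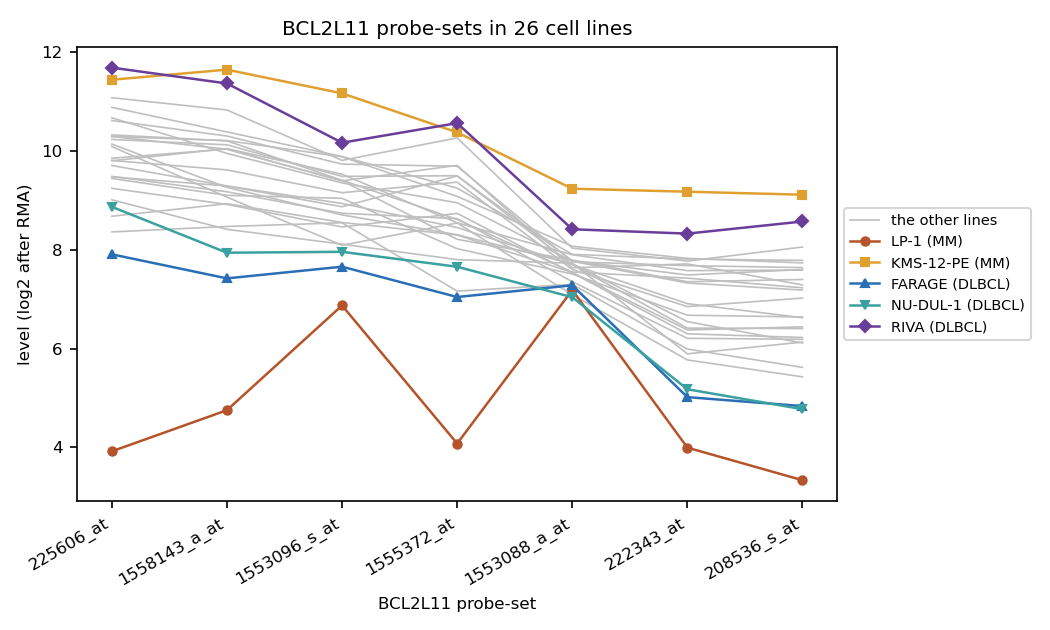
Level (log2, RMA) of the 7 BCL2L11 probe-sets, 1 position each, with the values of a cell line joined by a line and LP-1, KMS-12-PE, FARAGE, NU-DUL-1 and RIVA drawn in colour. LP-1 is the lowest line at 6 positions, at 3.92 on 225606_at, and not the lowest on 1553088_a_at.

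The related lines KMS-12-PE and KMS-12-BM differed strongly in 2 members. Over all probe-sets this pair was the most alike of all MM pairs (r = 0.952). Yet PMAIP1 (204286_s_at) had 9.25 in KMS-12-PE and 3.83 in KMS-12-BM, where the second value was under its background level of 6.82, so the difference was at least 2.43, or 5.39-fold. BCL2L11 had 11.43 in KMS-12-PE and 8.68 in KMS-12-BM on 225606_at. The difference was 1.69 to 2.76 over the BCL2L11 probe-sets where KMS-12-BM was above background. On 222343_at and 208536_s_at KMS-12-BM was under it, with measured differences of 2.79 and 2.67. Of all probe-sets, 0.148% differed more between both lines than PMAIP1 as measured, and 1.22% more than BCL2L11 on 208536_s_at. The other members moved less, with BIK 1.12 higher, BID 0.76 higher, and BAX and BAK1 each 0.60 lower in KMS-12-PE. There was 1 array for each line, so these differences have no replicate check.

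PMAIP1, BIK and BCL2L11 were the 3 members whose SD over the lines exceeded 1, with low ends under background. With the lowest line set to its background level, PMAIP1 spanned at least 72.7-fold. BIK spanned at least 25.8-fold, with NU-DHL-1 (5.06) and SU-DHL-8 (5.20) at the low end and FARAGE (12.44), U2932 (12.02) and SU-DHL-5 (11.94) at the high end. BID spanned 18.6-fold on 211725_s_at, from RPMI-8226 (8.0) to OCI-Ly3 (12.21), with all 26 lines above background. BMF spanned at least 6.63-fold, with AMO-1 lowest (6.50) and RIVA highest (9.97). BCL2L11 spanned at least 4.77-fold on 208536_s_at, a probe-set above background in 8 lines only. Its span was larger on 225606_at, where RIVA was highest at 11.68 and LP-1 was under its background level of 6.86. On that probe-set the panel median alone was at least 7.83-fold above LP-1. BAX spanned at least 4.14-fold, BAK1 at least 2.53-fold and BAD at least 2.25-fold.

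**Figure D3:**
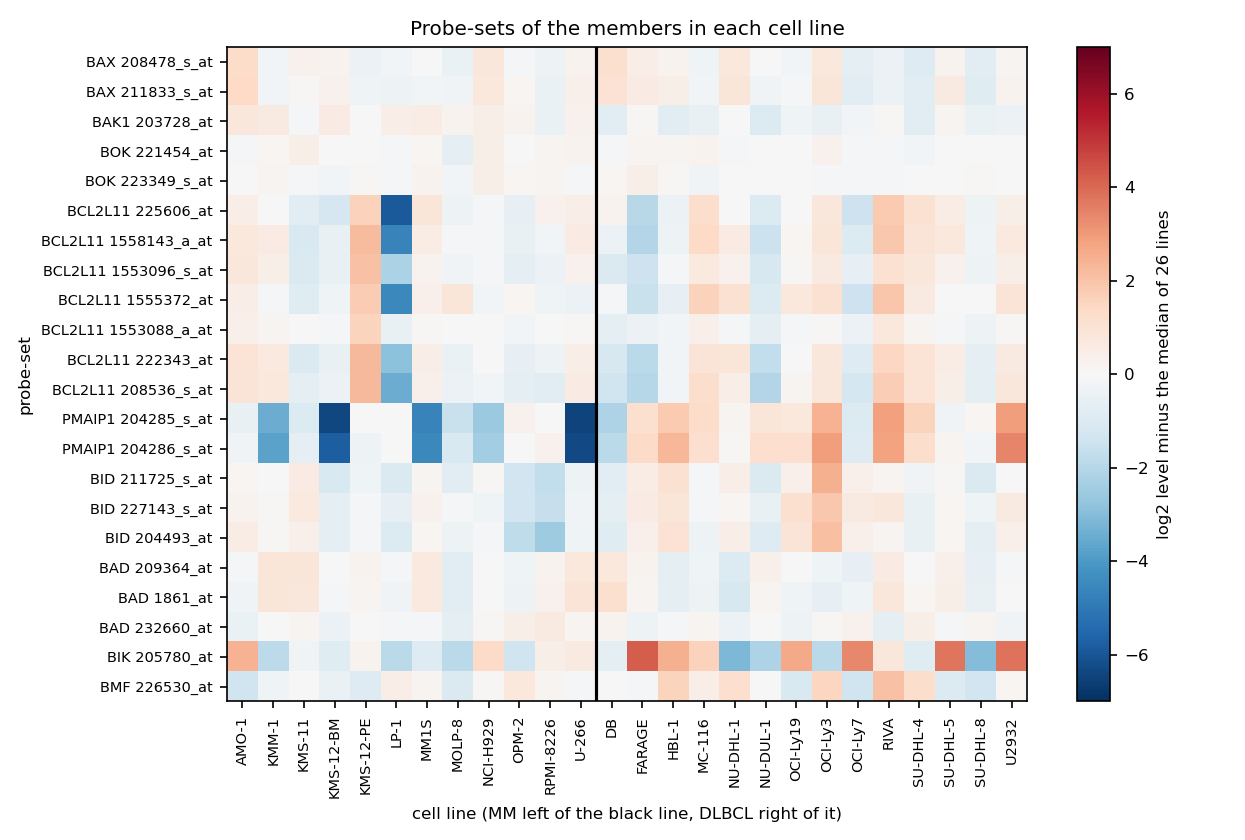
Heat map of the 22 probe-sets (rows) in 26 cell lines (columns, MM lines at left), coloured by the log2 level minus the median of that probe-set over all lines. The dark low cells are PMAIP1 in U-266 and KMS-12-BM and BCL2L11 in LP-1, all under the background level of their arrays.

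A line was said to lack a member where the member's brightest probe-set was at or under the background level of that array. No line lacked BID, and LP-1 was the 1 line that lacked BCL2L11. PMAIP1 was lacking in 3 MM lines (KMS-12-BM, MM1S and U-266) and in 0 DLBCL lines. BIK was lacking in 4 MM lines (KMM-1, LP-1, MOLP-8 and OPM-2) and in 5 DLBCL lines (NU-DHL-1, NU-DUL-1, OCI-Ly3, SU-DHL-4 and SU-DHL-8). BMF was lacking in 2 MM lines (KMS-12-PE and AMO-1) and in 4 DLBCL lines (OCI-Ly7, OCI-Ly19, SU-DHL-5 and SU-DHL-8). For BAK1 there were 4 such lines, all DLBCL (DB, NU-DUL-1, OCI-Ly3 and SU-DHL-4), for BAX 1 (SU-DHL-4) and for BAD 1 (NU-DHL-1), and BOK was lacking in all 26. The background level itself ran from 6.66 to 7.56 over MM arrays and from 6.97 to 7.75 over DLBCL arrays. With the 90th percentile as the level, or without MBP, a gene behind the level, NU-DUL-1 alone lacked BAK1. With the array median as the level, BAK1, BAX, BAD and BMF were lacking in 0 lines, BIK in 2 and PMAIP1 in 2. The calls for LP-1 (BCL2L11) and for KMS-12-BM and U-266 (PMAIP1) held with the array median, with the 90th percentile and without MBP. LP-1 was no longer counted when every probe-set had to be at background. A level at background bounds the transcript only and says nothing of the protein.

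Some lines lay at 1 end of the order for several members. NU-DUL-1 was among the lowest 3 lines for BAK1, BIK and, on 208536_s_at but not on 225606_at, BCL2L11. SU-DHL-8 was among them for BAX, BIK and BMF, and KMS-12-BM for PMAIP1 and BID. KMS-12-BM was also among the highest 3 for BAK1. All of these values of NU-DUL-1 and SU-DHL-8, and PMAIP1 in KMS-12-BM, were under the background level of their arrays. Lines under background have no order among themselves. OCI-Ly3 was among the highest 3 for BAX, PMAIP1, BID and BMF, and RIVA for BCL2L11, PMAIP1 and BMF. Between members, correlations over the 26 lines after centring each disease on its mean spanned -0.31 (PMAIP1 and BAD) to 0.41 (BAX and BID), with a median of 0.11 over the 28 pairs without BOK, so no pair of members was closely related on these probe-sets. BCL2L11 was taken here on 208536_s_at, above background in 8 lines only, which limits its pairs. Closest to each member, among 9216 genes with an SD of at least 0.5 and over the same 26 lines, were AEN to BID (r = 0.84), ZFX to BAK1 (0.73), UPP1 to BAD (0.73), ZBTB8OS to BIK (0.68), IGSF9 to BAX (0.66), RTL8C to BMF (0.64), GPD2 to PMAIP1 (0.64) and BMP6 to BCL2L11 on 208536_s_at (0.59).

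The question for the drugs was whether a member's level went with resistance to C, H or O inside a disease. AUC0 spanned 242 to 395 in MM lines and 165 to 346 in DLBCL lines for C, 227 to 356 in MM and 167 to 327 in DLBCL for H, and 90 to 187 in MM and 54 to 131 in DLBCL for O. Each class held 4 lines, except that H in DLBCL had 5 resistant and 5 sensitive lines. The H-resistant MM class held both KMS-12-PE and KMS-12-BM, which come from the same patient, so its 4 lines were not independent. The slopes in MM also counted both lines. Resistant minus sensitive lines and the slope on AUC0 were fitted by limma for each drug and disease, 12 comparisons and 264 tests of members' probe-sets. None of the 264 passed (limma, smallest adjusted p = 0.721, BAD in H within DLBCL), and 8 had an unadjusted p under 0.05, 3.03% against 4.75% over all probe-sets. Little passed anywhere on the array. For the classes the share of all probe-sets called was 0% for C in both diseases, 0.00183% for H in MM, 0.00366% for H in DLBCL, 0% for O in MM and 0.00366% for O in DLBCL. For the slopes it was 0.00183% for H in MM and 0% in the other 5 comparisons.

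The nearest to a relation was BIK with C in MM. BIK had 7.33 (KMS-12-BM), 8.62 (RPMI-8226), 8.82 (U-266) and 10.63 (AMO-1) in resistant MM lines, against 6.30 (MOLP-8), 6.40 (KMM-1), 6.82 (OPM-2) and 7.30 (MM1S) in sensitive ones. These classes did not overlap, though KMS-12-BM and MM1S almost met, and MOLP-8, KMM-1 and OPM-2 were under background. It was the 1 case of 132 comparisons of a probe-set between classes, while 2.67% of all probe-sets did not overlap for C in MM. The same share of all probe-sets was 2.6% for C in DLBCL, 4.46% for H in MM and 1.35% for H in DLBCL, and 1.87% for O in MM and 2.37% for O in DLBCL, and in these 5 comparisons no member's probe-set did so. The difference was 2.15 (SE 0.64, 95% CI 0.66 to 3.64) and did not pass (limma, adjusted p = 0.999), and the slope over 12 MM lines was 2.31 per 100 units of AUC0 (SE 0.61, limma adjusted p = 1). Without AMO-1, the most C-resistant line, they were 1.55 and 1.77.

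In DLBCL the BIK levels of the C classes overlapped. They were 7.55 (DB), 8.99 (RIVA), 12.02 (U2932) and 12.44 (FARAGE) in resistant lines and 5.06 (NU-DHL-1), 6.06 (NU-DUL-1), 10.84 (OCI-Ly19) and 11.94 (SU-DHL-5) in sensitive lines. NU-DHL-1 and NU-DUL-1 were under background. With values as measured, the difference was 1.78 (95% CI -2.48 to 6.03) and the slope over 12 DLBCL lines 0.64 (95% CI -2.39 to 3.67). The slope in MM minus that in DLBCL was 1.67 (95% CI -2.05 to 5.39, limma adjusted p = 1), so the slopes were not shown to differ. For O in DLBCL the BIK difference had the opposite sign. Resistant lines had 5.20 (SU-DHL-8), 7.55 (DB), 8.99 (RIVA) and 11.57 (OCI-Ly7). Sensitive lines had 9.82 (MC-116), 10.84 (OCI-Ly19), 11.94 (SU-DHL-5) and 12.44 (FARAGE). The measured difference was -2.93 (95% CI -5.90 to 0.03, limma adjusted p = 0.990), with SU-DHL-8 under its background level of 7.46.

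BCL2L11 had a negative slope on the AUC0 of O in MM lines that rested on LP-1. LP-1 was the most O-resistant MM line, at an AUC0 of 187. On 225606_at resistant lines had 3.92 (LP-1), 9.47 (MOLP-8), 9.70 (NCI-H929) and 9.80 (KMM-1), against 9.24 (OPM-2), 10.13 (RPMI-8226), 10.29 (U-266) and 10.67 (MM1S) in sensitive lines. The classes overlapped through OPM-2, and the difference was -1.86 (95% CI -4.88 to 1.17, limma adjusted p = 1). The slope over 12 MM lines was -2.35 per 50 units (SE 0.69, 95% CI -3.85 to -0.84, limma adjusted p = 0.954) and was -0.38 without LP-1. On 3 further BCL2L11 probe-sets slopes of -1.84, -1.55 and -1.38 became -0.15, 0.29 and -0.11 without that line. Over 12 DLBCL lines the slope on 225606_at was 0.01 (95% CI -1.26 to 1.28), and the slope in MM minus that in DLBCL was -2.36 (95% CI -4.30 to -0.42, limma adjusted p = 1).

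**Figure D4:**
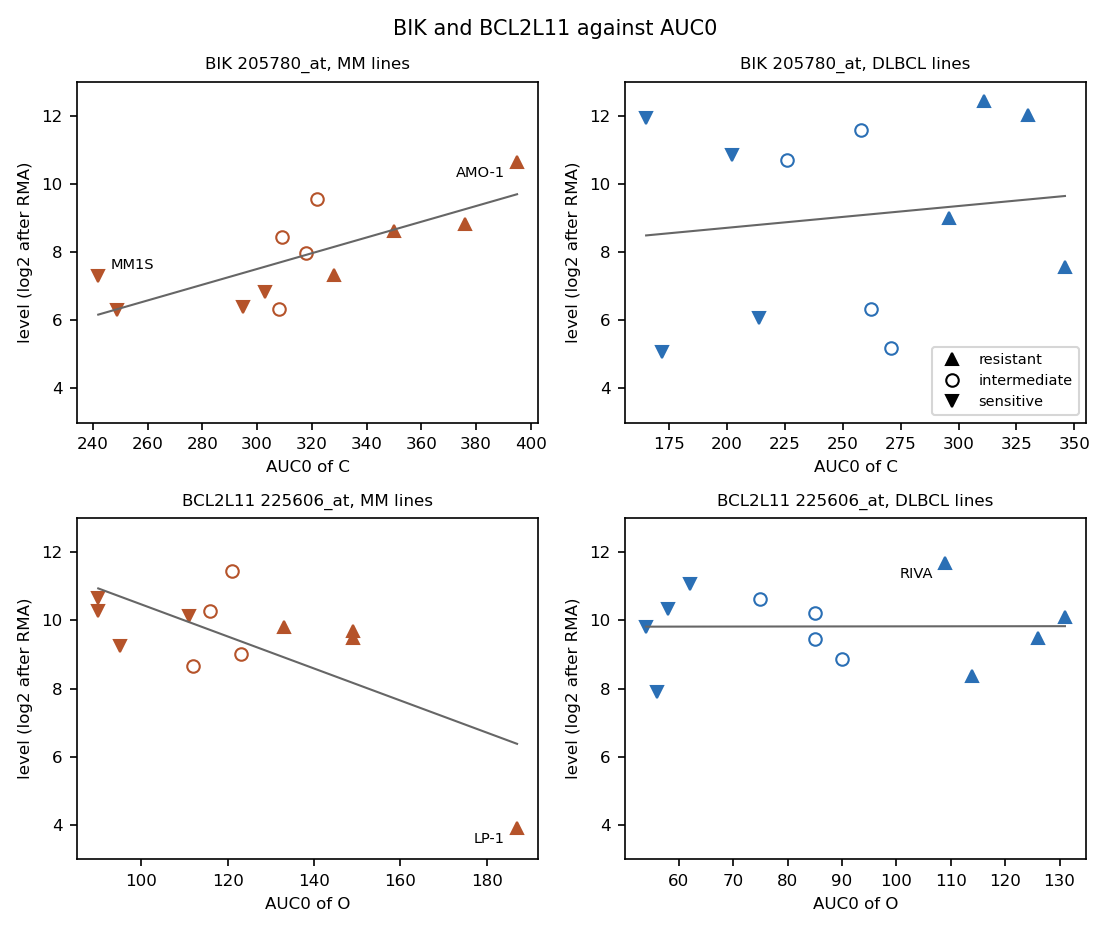
Level (log2) of BIK against the AUC0 of C (top) and of BCL2L11 on 225606_at against the AUC0 of O (bottom), with MM lines at left and DLBCL lines at right; markers give the class and the line is the limma slope. BIK in MM has a slope of 2.31 per 100 units, and the BCL2L11 slope in MM of -2.35 per 50 units follows LP-1 at the lower right.

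BAX had slopes of 0.76 (211833_s_at) and 0.71 (208478_s_at) per 100 units of C AUC0 in MM lines (limma, adjusted p = 1 for both), which were 0.35 and 0.34 without AMO-1, the highest line for BAX. These, BIK and the 4 BCL2L11 probe-sets made up all 8 tests with an unadjusted p under 0.05. PMAIP1, in spite of its range, showed no difference beyond the spread between lines for any drug. For C in MM it had 3.33 (U-266), 3.83 (KMS-12-BM), 9.36 (AMO-1) and 9.93 (RPMI-8226) in resistant lines, against 5.13 (MM1S), 5.86 (KMM-1), 8.55 (MOLP-8) and 9.62 (OPM-2) in sensitive lines. Low and high lines occurred in both classes, and the interval of the difference of -0.68 ran from -4.94 to 3.59. For H the interval of the BAX difference was -1.33 to 0.44 in MM and -1.26 to 0.59 in DLBCL, and that of BAK1 was -0.74 to 0.24 in MM and -0.75 to 0.13 in DLBCL. In MM these intervals treat KMS-12-PE and KMS-12-BM, both H-resistant, as independent lines, which they are not. With 4 or 5 lines a class, a p that missed the threshold does not show that the classes were alike.

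**Figure D5:**
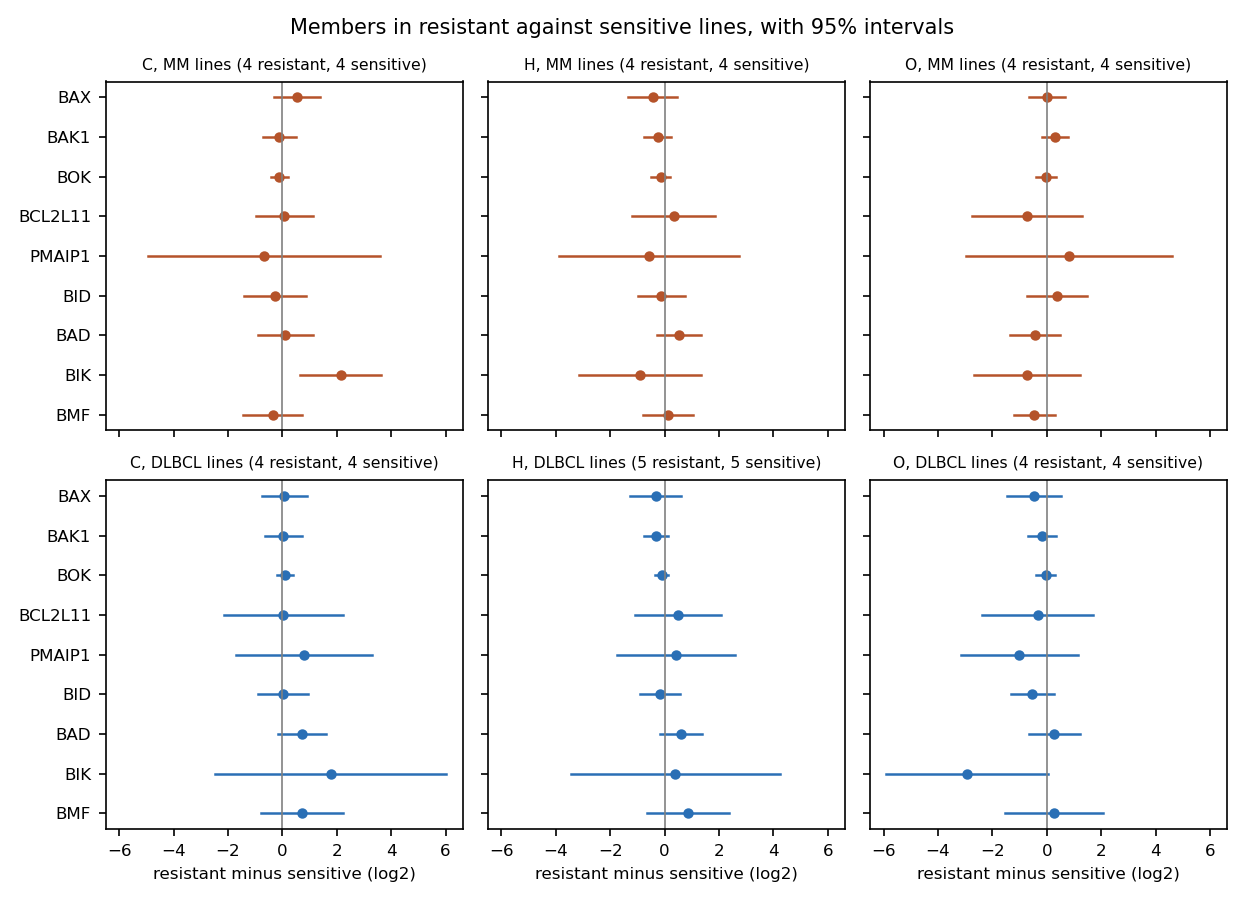
Resistant minus sensitive lines (log2) for the 9 members and for C, H and O, with MM panels in the top row and DLBCL panels in the bottom row. Points are limma estimates and bars 95% intervals. The BIK interval for C in MM (0.66 to 3.64) excludes 0 before adjustment, and no member passed after it.

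None of the 132 tests of whether a member's class difference or slope differed between MM and DLBCL passed (limma, smallest adjusted p = 0.748), and 1 had an unadjusted p under 0.05, the BCL2L11 slope for O above. Over all probe-sets the share called was 0.0256% for C classes, 0.0275% for H classes, 0% for O classes and 0% for the slopes of the 3 drugs.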

How the data were processed

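RNA of 26 untreated cell lines was measured on 1 HG-U133 Plus 2.0 array each. The deposited values are log2 levels after background correction, quantile normalisation and summarisation by RMA, which the authors ran on all arrays together with the affy package in R 3.0.1. RMA compresses low levels and sets all arrays to 1 distribution, so a shift of the whole transcriptome would not be seen. The AUC0 and class of each line were copied from the labels, where the class for H carries the name of another drug and was taken by its place after the AUC0 of H.

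Of 54675 probe-sets, 62 controls were left out. Genes were named from the platform annotation of 2016, with symbols updated through gene identifiers: 41091 probe-sets had 1 symbol, 1801 several and 11721 none. The members and gene lists were chosen with earlier results of these data known. The remaining 54613 probe-sets entered each fit (limma 3.58.1, R 4.3.3), p-values were adjusted by Benjamini-Hochberg over all of them, and a probe-set was called at an adjusted p under 0.05. The fits were MM minus DLBCL over 26 lines, resistant minus sensitive lines and the slope on AUC0 (per 100 units for C and H, per 50 units for O) within each disease, and the interaction of each with disease. Folds against levels under background are lower bounds, with such levels set to the background level of their array, a rule added after seeing the data. The scripts were tested on simulated data.

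All members were named, with every probe-set. Of the other lists, genes that passed in MM minus DLBCL were named, at most 5 a list, and MCL1 and CDKN1A were added after their values were seen. The 3 genes most alike to each member were found by correlation, and the first of each is given. Alternatives were 1 probe-set a gene, a filter on dim probe-sets (above background in fewer than 4 lines), centring of arrays, another variance prior, other sets of lines and other background levels. The growth medium, the exclusion of KMS-12-BM and U-266, and each line left out in MM minus DLBCL were added after seeing the data, as was the level without MBP. The number of arrays, 1 a line, limits the precision.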

Additional observations from a re-analysis of the deposited data

Results flagged for a closer look

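Within a class of 4 or 5 lines, 8 values stood apart from the other lines of their class by Dixon's test, of 108 groups tested. About 1 in 20 groups is expected to do so by chance, which is 5.4 here. BIK in NCI-H929 was 9.55 among the O-resistant MM lines, whose next line had 6.40, with all other lines of that class under background. BAX in NCI-H929 was 8.82 in the same class, whose next line had 7.90. BCL2L11 (208536_s_at) in NU-DUL-1 was 4.77 among the C-sensitive DLBCL lines, against 7.02 in the next, with all values of that class under background. BMF in RIVA was 9.97 among the C-resistant DLBCL lines, against 8.02 in the next. PMAIP1 in SU-DHL-5 was 9.81 among the O-sensitive DLBCL lines, against 10.79 in the next. BID in SU-DHL-8 was 8.69 among the H-sensitive DLBCL lines, against 9.82 in the next, and BID in MOLP-8 was 8.98 among the H-sensitive MM lines, against 9.79 in the next. BOK in FARAGE was 5.47 among the H-sensitive DLBCL lines, against 5.13 in the next, with all of these values under the background level.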

How the results depend on the processing

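The members called in MM minus DLBCL, BAK1 and PMAIP1, kept direction and call under every alternative tried but 2 and with each line left out. The calls were lost where only lines of 1 medium were tested: 0 members and 2150 of all probe-sets passed in RPMI with 10% serum, and 0 members and 528 in 20% serum, where fewer lines were tested. With 1 probe-set a gene 3483 of all probe-sets passed, since fewer were tested, against 6285, and with each line left out 5499 to 6442. Differences near 0 changed sign. BAX went to -0.13 without MC-116 and AMO-1, -0.042 without KMS-12-BM and U-266, -0.057 in 10% serum, -0.47 in 20% serum, -0.19 with the medium as a term, and -0.113 to 0.0781 with each line left out. BID was -0.03 in 20% serum and BIK -2.22 in 10% serum. In 20% serum BCL2L11 (208536_s_at) was 0.93, BOK -0.0476 and BAD -0.97. That BCL2L11 difference was -0.29 to 0.23 with each line left out. The O slope of BCL2L11 in MM was 0.29 on 1555372_at without LP-1 and 0.17 on 208536_s_at without LP-1 and MOLP-8.

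For the drugs 0 members passed under any alternative. Counts over all probe-sets with each line left out were 0 to 2 (C, MM), 0 to 3 (C, DLBCL), 0 to 3 (H, MM), 0 to 29 (H, DLBCL, the most without SU-DHL-5), 0 to 8 (O, MM, the most without U-266) and 0 to 2 (O, DLBCL). Without dim probe-sets they were 1 for C in MM, 1 for H in DLBCL and 2 for O in MM, and with 1 probe-set a gene 1 for H and 1 for O in DLBCL. Both diseases together gave 0 for H and O, and the H slope in MM gave 0 without MM1S and MOLP-8. Interactions of class with disease were 6 (C) and 6 (H) with 1 probe-set a gene, and 26 (H) and 1 (O) without dim probe-sets. The causes were not tested.

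Lines lacking a member depended on the background level. With the array median they were 0 for BAX, BAK1, BAD and BMF, 2 for BIK and 10 for BOK. With the 90th percentile they were 0 for BAX and BAD, 1 for BAK1 and 3 for BMF, and without MBP 0 for BAX and BAD and 1 for BAK1. BCL2L11 was lacking in 0 lines when every probe-set had to be at background.

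No paired analysis was possible because the numbers only name cell lines and pair none across the diseases. Signal over background limits BOK, APAF1, 232660_at of BAD and 208536_s_at and 222343_at of BCL2L11, which lay at or under it in most lines.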
